A study of Mus musculus with 6 samples.

Results

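The 5 genes of signalling at and behind the cell surface that were followed here are Adgrl4, Scarf1, Rapgef5, Arrb1 and Pdgfb. They are 5 of 11911 genes that could be named by position in mouse RNA sequencing counts, and they were measured in 7 of the 53509 deposited rows. Adgrl4 was the sum of the rows named Gm43618, Ifi44 and Ptgfr, Scarf1 the row Inpp5k, Rapgef5 the row of its own name, Arrb1 the row Gm18959 and Pdgfb the row Syngr1. The 5 genes were chosen by their difference between the control and MIRI libraries, so that difference is described here without a test. The compared samples were C57BL/6 mice in 2 groups of 3 libraries. Control libraries carry the genotype wild type. MIRI libraries carry myocardial ischemia-reperfusion injury (blocked and then restored blood flow to heart muscle) in the genotype field, and the deposited file names call them mutant, so injury and any mutation cannot be told apart. No treatment agent, allele, sex, time after injury or batch is given, and the design text puts the mice of both groups at 21 days of age. Nothing states that the 3 libraries of a group came from separate animals, so p-values measure only the spread between these libraries, which may be technical.

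The sources name the retina as tissue, the intervertebral disc as the extracted material and the heart in the condition, so no tissue was assumed. Markers did not settle it. Of 17 listed heart and skeletal muscle genes, 6 had a row and none had enough counts to be tested, with a summed level of 1.92 to 4.22 CPM in control and 1.75 to 4.67 CPM in MIRI libraries, and Myh6, the alpha myosin heavy chain of heart, had 0 counts throughout. CPM are counts per 1000000 of all counts of the library. Photoreceptor and retinal genes summed to 11.0 to 23.2 CPM over all 6 libraries, with Pde6b, Opn1sw and Rlbp1 tested, and disc and cartilage genes to 18.4 to 26.2 CPM, with Col9a2 and Chad tested and Acan, the cartilage proteoglycan, at 0 counts in all MIRI libraries. Fibroblast genes such as Fn1 and Col1a1 summed to 67172 to 89398 CPM. The libraries held 6859481 to 9250952 counts each. RNA was bulk, in which fewer cells of a type and less RNA per cell cannot be told apart.

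Adgrl4 encodes an adhesion G protein-coupled receptor of vascular endothelium, with a long extracellular region that is cleaved next to the membrane. Scarf1 encodes a scavenger receptor, first described on endothelial cells, that takes up modified lipoproteins and fragments of dying cells. Pdgfb encodes the B chain of platelet-derived growth factor, which endothelial cells and platelets release and which recruits pericytes through the receptor Pdgfrb. Inside the cell, Arrb1 (beta-arrestin) binds phosphorylated receptors, uncouples them from G proteins and brings them to clathrin. Rapgef5 loads Rap GTPases with GTP, and Rap1 strengthens integrin adhesion and cell junctions.

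The row names do not give the genes. Read in GRCm38 coordinates, the row named Adgrl4 touched no exon and held at most 0.542 CPM, the row Scarf1 lay on 242 bp of Serpinf1 exons, the row Arrb1 on Gm18943 and the row Pdgfb on Apobec3. By position, Adgrl4 (ENSMUSG00000039167.11, plus strand of chromosome 3, 151437887 to 151545086) was covered over 2435 of 4106 bases of its first listed transcript. Scarf1 (ENSMUSG00000038188.17, plus strand of chromosome 11, 75513540 to 75526582) was covered over 811 of 2887 bases, all coding. Pdgfb (ENSMUSG00000000489.7, minus strand of chromosome 15, 79995874 to 80014977) was covered over 600 of 2944 bases, of which 501 were coding. Rapgef5 (ENSMUSG00000041992.9, plus strand of chromosome 12, 117516479 to 117759737) was covered over 1 coding exon of 150 bases, exon 19 of 28. Arrb1 (ENSMUSG00000018909.15, plus strand of chromosome 7, 99535466 to 99606771) was likewise covered over 1 coding exon, exon 11 of 15, with 138 bases. Over the exons of all transcripts of a gene, the covered bases were 166 for Arrb1 and 1534 for Pdgfb. The rows also hold bases outside all exons of their gene, from 489 bp in the Arrb1 row to 12635 bp in the Rapgef5 row. The files do not record on which bases of a row its counts fell. Counting used no strand setting, so reads of an antisense partner are not told apart, and levels of different genes are not compared.

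**Figure D1:**
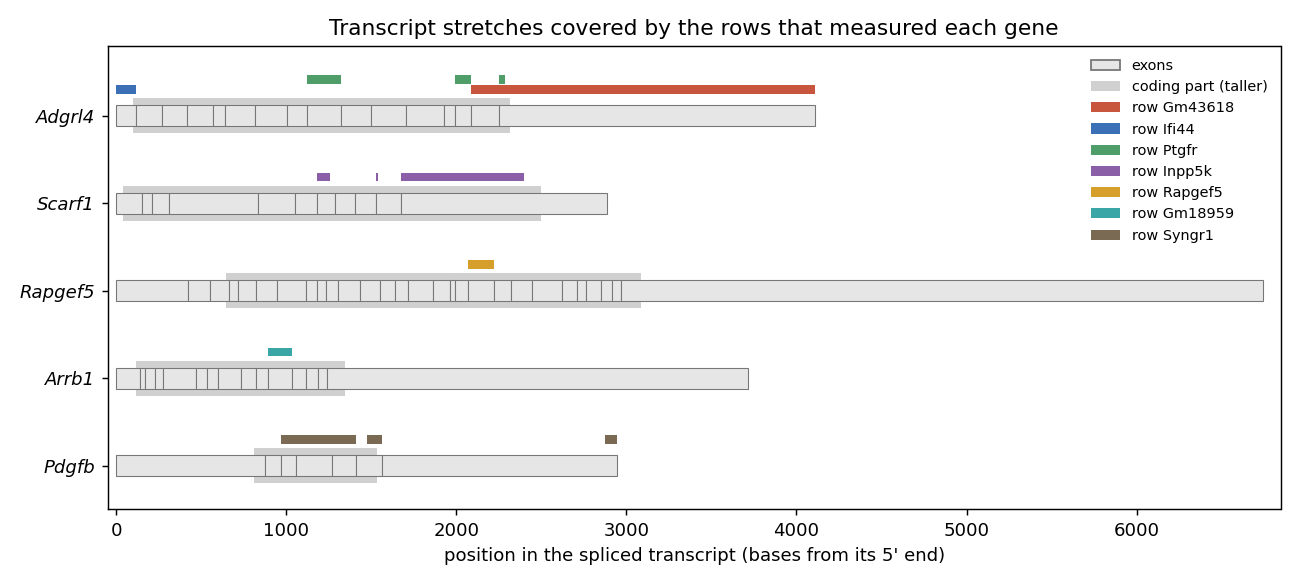
Spliced transcript of each gene, with its 5′ end at the left and position in bases on the horizontal axis; grey boxes are exons, taller grey the coding part, and coloured bars the stretches that each deposited row covers. Adgrl4 is covered at both ends by 3 rows, while Rapgef5 and Arrb1 are covered in 1 exon each.

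The following exons are shown because they are the whole, or a coding stretch, of the transcript bases of each gene that its rows cover. They were read from GENCODE M21 transcripts (GRCm38) and are written 5′ to 3′ on the strand of the gene. Adgrl4 exon 9 (chr3:151507349-151507551, in the row Ptgfr) and exon 15 (chr3:151542681-151542849, in the row Gm43618), Scarf1 exon 7 in the part that the row Inpp5k covers (chr11:75521952-75522023), Rapgef5 exon 19 (chr12:117721242-117721391) and Pdgfb exon 4 (chr15:80001682-80001887, minus strand, in the row Syngr1) read as follows.
Adgrl4 exon 9: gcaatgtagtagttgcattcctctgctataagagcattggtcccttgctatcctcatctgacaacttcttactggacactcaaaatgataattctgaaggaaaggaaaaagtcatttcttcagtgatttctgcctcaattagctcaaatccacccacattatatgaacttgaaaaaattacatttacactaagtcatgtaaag
Adgrl4 exon 15: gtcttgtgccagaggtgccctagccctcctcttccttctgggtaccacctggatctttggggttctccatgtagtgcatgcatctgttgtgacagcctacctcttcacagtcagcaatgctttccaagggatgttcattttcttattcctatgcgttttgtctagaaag
Scarf1 exon 7: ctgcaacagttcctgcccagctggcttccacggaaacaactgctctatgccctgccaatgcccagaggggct
Rapgef5 exon 19: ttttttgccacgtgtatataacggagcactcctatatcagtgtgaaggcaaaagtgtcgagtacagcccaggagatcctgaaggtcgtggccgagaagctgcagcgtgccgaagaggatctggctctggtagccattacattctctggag
Pdgfb exon 4: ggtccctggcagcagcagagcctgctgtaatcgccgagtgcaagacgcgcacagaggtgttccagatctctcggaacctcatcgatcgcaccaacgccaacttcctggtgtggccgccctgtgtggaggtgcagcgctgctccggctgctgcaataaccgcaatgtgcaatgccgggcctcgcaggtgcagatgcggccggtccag

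Arrb1 has a close relative, Arrb2, so the Arrb1 exon that its row covers (chr7:99594621-99594758) is set beside the matching Arrb2 exon (chr11:70438648-70438785), with capitals on the bases that differ.
Arrb1 exon 11: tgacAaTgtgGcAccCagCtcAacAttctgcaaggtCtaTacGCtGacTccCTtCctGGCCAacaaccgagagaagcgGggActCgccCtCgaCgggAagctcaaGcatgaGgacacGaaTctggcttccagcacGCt
Arrb2 exon: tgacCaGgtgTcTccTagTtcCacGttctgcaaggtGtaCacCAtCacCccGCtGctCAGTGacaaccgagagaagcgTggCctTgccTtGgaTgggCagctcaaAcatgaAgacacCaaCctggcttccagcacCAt
The exons share 103 of 138 bases (74.6%), and the longest shared run is 16 bases. Arrb2, measured by its own row, stood at 5.42, 7.67 and 7.03 CPM in controls 1 to 3 and at 9.69, 4.81 and 4.60 CPM in MIRI 1 to 3. Its groups overlapped, unlike those of Arrb1.

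All 5 genes were lower in MIRI than in control libraries, with no overlap between the groups. Among all 5918 genes tested, 5.47% were lower in MIRI without overlap and 3.46% were higher without overlap. Those lower without overlap whose log2 fold change was at or below that of Arrb1 made up 1.17%. In edgeR's quasi-likelihood test 0.0% of genes passed an adjusted p of 0.05 in either direction, at an unadjusted p under 0.05 it gave 175 lower and 97 higher, and DESeq2 called 0.811% lower (48 genes, these 5 among them) and 9 higher. Since this contrast chose the genes, nothing is read from those shares. The median log2 fold change of all tested genes was 0.01.

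Pdgfb, the ligand, had 3.12, 8.21 and 9.40 CPM in controls 1 to 3 and 0.538, 0.875 and 0.813 CPM in MIRI 1 to 3. Control 1 was the lowest control and still above every MIRI library. The MIRI values rest on 4, 6 and 6 counts. Means were 6.91 ± 3.34 (SD, n = 3) and 0.742 ± 0.179 CPM (SD, n = 3), a ratio of 9.32, and the fitted log2 fold change was -3.20 ± 0.52 (SE).

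Adgrl4, the adhesion receptor, had 23.2, 20.1 and 44.1 CPM in controls 1 to 3 and 3.63, 2.33 and 2.17 CPM in MIRI 1 to 3. Control 3 stood highest, 2.19 times control 2, and the lowest control was 5.54 times the highest MIRI library. Mean levels were 29.1 ± 13.1 (SD, n = 3) against 2.71 ± 0.803 CPM (SD, n = 3), and the log2 fold change of -3.43 ± 0.38 (SE) had the lowest value among the 5 genes. Its 3 rows do not start from the same exons, and each was lower in MIRI libraries without overlap. The contrast that chose the gene also chose these rows, so nothing is read from their agreement. Of the bases of each row, 58.6% in Gm43618, 4.85% in Ptgfr and 1.93% in Ifi44 lay on Adgrl4 exons. The row Gm43618, over the last exons, had 80, 53 and 176 counts in controls and 10, 9 and 8 in MIRI libraries. The row Ptgfr, with exon 9 and exon 14, had 58, 55 and 144 against 11, 4 and 6. The row Ifi44, with the first exon, had 33, 39 and 88 against 6, 3 and 2. Control 3 was highest in all 3 rows. The log2 fold changes of the rows were -3.31, -3.42 and -3.64, and 5.18% of the 15777 tested rows were lower without overlap. Summed over the group, Gm43618 gave 42.6% of Adgrl4 counts in controls (exact 95% interval 38.9 to 46.3%) and 45.8% in MIRI libraries (32.7 to 59.2%), intervals that cover counting error only. These intervals overlap. The rows Gm43618 and Ptgfr share 34 bases of the last exon.

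Scarf1, the scavenger receptor, had 11.1, 21.2 and 15.1 CPM in controls 1 to 3 and 3.36, 4.67 and 2.84 CPM in MIRI 1 to 3. Control 2 was highest among controls and MIRI 2 among MIRI libraries. Means were 15.8 ± 5.09 (SD, n = 3) and 3.62 ± 0.938 CPM (SD, n = 3), a ratio of 4.37 and a log2 fold change of -2.11 ± 0.30 (SE). Its row passed the naming rule narrowly, with 80.1% of its exon bases on Scarf1. The rest lay on Gm45606 (115 bp) and on Slc43a2 (86 bp), an amino acid transporter gene whose own row, Myo1c, had 15.8, 22.6 and 23.6 CPM in the control libraries, against 15.6, 12.1 and 15.7 CPM in MIRI libraries.

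Rapgef5, the Rap exchange factor, had 12.6, 44.9 and 30.7 CPM in controls 1 to 3 and 2.42, 3.50 and 3.66 CPM in MIRI 1 to 3. Its controls were the most spread of the 5 genes, with control 2 at 3.57 times control 1. Means were 29.4 ± 16.2 (SD, n = 3) and 3.19 ± 0.672 CPM (SD, n = 3), a ratio of 9.21 and a log2 fold change of -3.19 ± 0.47 (SE).

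Arrb1, the arrestin, had 25.6, 22.6 and 24.5 CPM in controls 1 to 3 and 13.5, 11.1 and 12.7 CPM in MIRI 1 to 3. It had the smallest difference and the tightest replicates of the 5, with the highest control only 1.13 times the lowest. Means were 24.2 ± 1.53 (SD, n = 3) and 12.4 ± 1.22 CPM (SD, n = 3), a ratio of 1.95 and a log2 fold change of -0.96 ± 0.14 (SE).

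**Figure D2:**
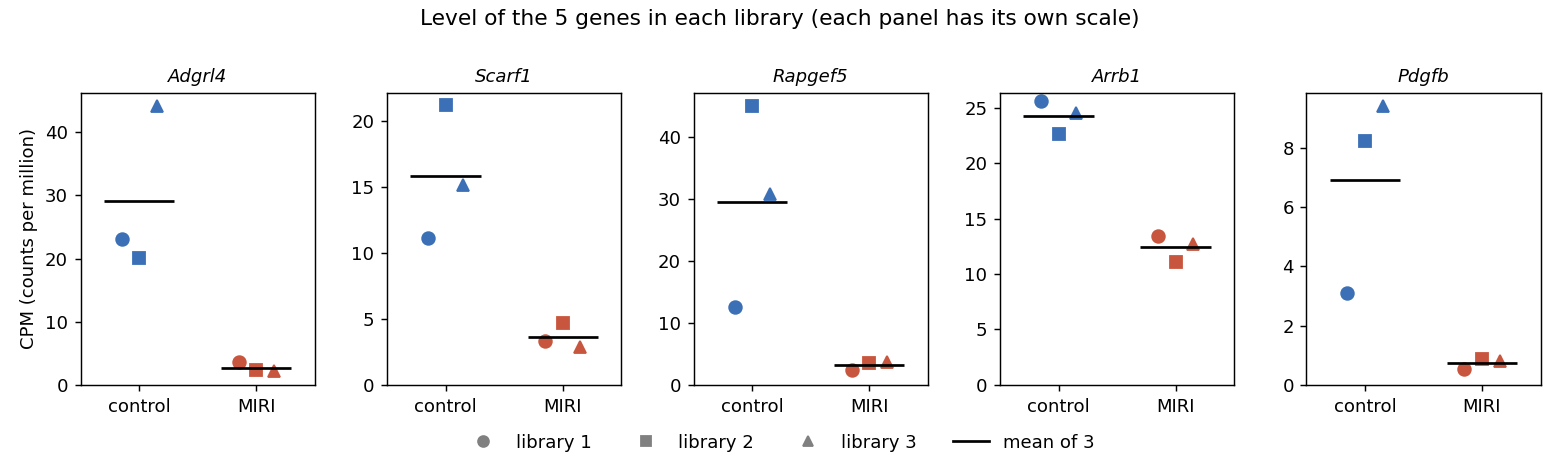
CPM of each gene (vertical axis from 0, own scale in each panel) in the 3 control and 3 MIRI libraries; marker shape gives the library number and the bar the mean of 3. In each panel every control lies above every MIRI library, from 25.6 to 22.6 against 13.5 to 11.1 CPM in Arrb1 to 44.1 to 20.1 against 3.63 to 2.17 CPM in Adgrl4.

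The 5 genes did not share an order of libraries. Control 1 was lowest for Scarf1, Rapgef5 and Pdgfb but highest for Arrb1, and control 2 was lowest for Adgrl4 and Arrb1. As a measure of likeness, the root mean square difference of log2(CPM + 0.5), centred over the 6 libraries, was smallest between Rapgef5 and Pdgfb (0.299) and between Scarf1 and Pdgfb (0.431). It was largest between Adgrl4 and Arrb1 (1.16) and between Rapgef5 and Arrb1 (1.14). All points share the 6 libraries and their depths, and both the group difference and the spread within groups enter the measure.

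Pecam1, an adhesion protein of endothelial junctions measured by position in 4 rows of other names, stood at 74.8, 355 and 242 CPM in controls 1 to 3 and at 19.1, 1.75 and 4.33 CPM in MIRI 1 to 3. Within the MIRI group Pecam1 spanned 10.9-fold, while Adgrl4 spanned 1.68-fold, Scarf1 1.64-fold, Pdgfb 1.63-fold, Rapgef5 1.51-fold and Arrb1 1.21-fold. A narrow span was not particular to the 5 genes: Tek (1.24-fold), Selp (1.29-fold), Ecscr (1.30-fold) and Ptprb (1.60-fold), which endothelium also expresses, were as narrow. Put per 100 Pecam1 counts, Adgrl4 gave 31.0, 5.67 and 18.2 counts in controls and 19.0, 133 and 50 in MIRI libraries. Rapgef5 gave 16.8, 12.6 and 12.7 counts in controls, 12.7 in MIRI 1, and 200 and 84.4 in MIRI 2 and MIRI 3. Thus MIRI 1 had Rapgef5 and Pecam1 in the proportion of the controls, and MIRI 2 and MIRI 3, which had 12 and 32 Pecam1 counts, did not. Arrb1 gave 34.2, 6.36 and 10.1 counts in controls and 70.4, 633 and 294 in MIRI libraries, and Scarf1 gave 14.9, 5.98 and 6.24 against 17.6, 267 and 65.6. Both were above the controls in all 3 MIRI libraries. Pdgfb gave 4.17, 2.31 and 3.88 counts in controls, 2.82 in MIRI 1, and 50 and 18.8 in MIRI 2 and MIRI 3.

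**Figure D3:**
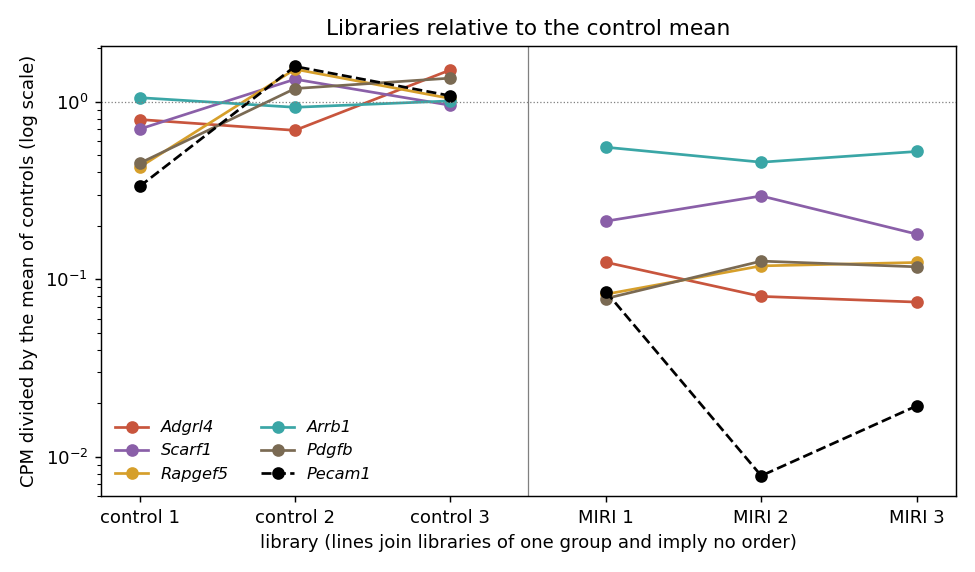
CPM of the 5 genes and of Pecam1 (dashed) in each library, divided by the mean of the controls of that gene, on a log axis; lines only join libraries of a group. In MIRI libraries the 5 genes hold 7.44 to 55.5% of their control mean, while Pecam1 goes from 8.53% in MIRI 1 to 0.781% in MIRI 2.

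Endothelial genes as a list were low in MIRI libraries along with the 5 genes. Of 25 listed, 9 had a row and were tested. None passed edgeR's adjusted threshold, but all 9 had a log2 fold change below 0 (47.3% over all genes), 7 were lower without overlap (5.47% over all genes), and their median was -3.70 against 0.01 over all genes. This list, like those below, was chosen with earlier results of these data known, so these shares are descriptions and no test. The list summed to 395 to 1009 CPM in controls and 221 to 291 CPM in MIRI libraries. In each MIRI library most of that sum was Eng, whose levels are given below. Robo4, a guidance receptor of vessels, had 28, 66 and 67 counts in controls and 2, 0 and 0 in MIRI libraries, and Emcn, a sialomucin of capillaries and veins, had 88 counts in all in controls and 0 in MIRI. Tie1, a receptor tyrosine kinase of endothelium, had 23.3, 119 and 74.9 CPM against 5.79, 0.0 and 1.08 CPM. Other endothelial genes differed less, with Vwf at a log2 fold change of -3.70 ± 0.72 (SE), Ecscr at -1.56 ± 0.33 (SE) and Tek, the angiopoietin receptor, at -1.15 ± 0.25 (SE). Ptprb, the vascular endothelial phosphatase, had 48.9, 137 and 85.9 against 34.3, 54.8 and 48.5 CPM, with overlap. Eng, the TGF-beta co-receptor that fibroblasts and macrophages also express, was at 197, 252 and 269 against 138, 211 and 199 CPM, and its groups overlapped too. The part of endothelial cell content in the levels of the 5 genes was not tested.

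Platelets, a further known source of Pdgfb, were covered by few markers. Of 15 listed genes 3 were tested. Selp, the P-selectin of platelets and endothelium, had 83.2, 189 and 113 CPM in the control libraries, against 32.0, 27.7 and 24.8 CPM in MIRI libraries, without overlap. Gp1ba, the platelet receptor for von Willebrand factor, stood at a log2 fold change of -0.07 ± 0.10 (SE) and Itga2b, the platelet integrin, at 0.12 ± 0.30 (SE). Clec1b, a platelet activation receptor too low to be tested, had 4, 4 and 6 counts in controls and 0 in the 3 MIRI libraries, and Gp6 had 0 counts in every library. The summed list ran from 140 to 244 CPM in controls and from 73.9 to 88.9 CPM in MIRI libraries. Without Selp, a split made after the values were seen, it ran from 52.6 to 56.6 CPM in controls and from 49.2 to 56.9 CPM in MIRI libraries. Gp1ba alone made up nearly all of that remainder. It had 53.5, 51.5 and 49.5 CPM in controls 1 to 3 and 53.4, 46.1 and 47.1 CPM in MIRI 1 to 3. The part of platelet content in the Pdgfb level was not tested.

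The lists of pericyte, macrophage and fibroblast genes had medians of 0.07 to 0.19. Pericyte and smooth muscle genes, of which 6 of 19 were tested, had a median of 0.14 with 0 lower without overlap (5.47% over all genes). They summed to 153 to 206 CPM in controls and 174 to 212 CPM in MIRI libraries. On the log2 scale the differences were -0.52 in Cspg4, 0.26 in Myh11, 0.20 in Pdgfrb and 0.14 in Mylk, and all 4 overlapped. Macrophage and leukocyte genes summed to 86.7 to 134 CPM in controls and 94.7 to 147 CPM in MIRI libraries, with Csf1r at 0.14 and Lyz2 at 0.24. Only these 2 of the 21 listed were tested, so their median rests on 2 values. Most of the sum was Csf1r in each library. For controls 1 to 3 Csf1r was at 110, 78.6 and 97.9 CPM, and for MIRI 1 to 3 at 84.0, 114 and 117 CPM. Ptprc, the pan-leukocyte marker, had 8 to 11 counts in every library. Leukocyte content as a whole was not tested. Fibroblast genes had a median of 0.07 over 10 tested, with Dcn at -0.62, Thy1 at -0.35, Col1a1 at 0.31 and Col1a2 at 0.27. Of these 10, 2 genes, Thy1 and Vim, were lower without overlap (5.47% over all genes). Y-linked genes separated the groups as well. All 4 tested (Ddx3y, Uty, Kdm5d and Eif2s3y) were higher in MIRI without overlap (3.46% over all genes), though none passed edgeR's adjusted threshold. Ddx3y had 1.22, 0.548 and 2.70 CPM in the control libraries, against 98.6, 6.71 and 24.1 CPM in MIRI libraries. These values differ 14.7-fold within the MIRI group, and the part of sex in the levels of the 5 genes was not tested.

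The pathway of each gene was described by a list, of which no gene passed edgeR's adjusted threshold in either direction. On the ligand side, 14 of 29 PDGF genes were tested, with a median log2 fold change of -0.01. Beside the chosen Pdgfb, 0 of 13 were lower without overlap (5.47% over all genes). The receptor Pdgfrb, to which Pdgfb binds, had 118, 73.7 and 83.7 CPM in the control libraries, against 89.2, 107 and 117 CPM in MIRI libraries, a log2 fold change of 0.20 ± 0.20 (SE). Pdgfra, the other receptor, stood at 0.20 ± 0.17 (SE), Pdgfa at 0.14 ± 0.18 (SE) and Pdgfd at -0.14 ± 0.19 (SE). Downstream, Rasa1, a Ras GTPase-activating protein, stood at 0.22 and the transcription factor Stat3 at -0.10. The groups of both receptors and of both other ligands overlapped.

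Of 31 adhesion receptors in the list, 10 were tested, with a median of -0.59, or -0.37 without Adgrl4. Adgrf5, a receptor of lung and vascular endothelium, had 2.98, 13.6 and 7.35 CPM in the control libraries, against 1.48, 0.0 and 0.135 CPM in MIRI libraries. Adgrg3, best known in leukocytes and lymphatic endothelium, had 1.90, 5.20 and 2.27 against 0.942, 0.583 and 0.271 CPM. The MIRI values rest on few counts, 11, 0 and 1 for Adgrf5 and 7, 4 and 2 for Adgrg3. These 2 of the 9 tested beside Adgrl4 were lower without overlap, against 5.47% over all genes. Adgrg1 overlapped at a log2 fold change of -1.56 ± 0.80 (SE).

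Scavenger receptors gave 6 tested genes of 21, with a median of 0.19. Stab1, a receptor of sinusoidal endothelium and macrophages that takes up modified lipoproteins, had 29.1, 64.8 and 49.1 CPM in the control libraries, against 18.8, 11.1 and 10.2 CPM in MIRI libraries. It was the 1 of 5 tested beside Scarf1 that was lower without overlap (5.47% over all genes). Megf10, a relative of Scarf1 that engulfs dying cells, was at 0.36 ± 0.29 (SE) and the lipoprotein receptor Olr1 at 0.35 ± 0.35 (SE), both with overlap.

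Rap1 genes gave 15 tested of 34, with a median of 0.01. Beside Rapgef5, which was chosen for its difference, 2 of 14 were lower without overlap (5.47% over all genes): Dock4 and Arap3. Dock4, an exchange factor named for Rap and Rac, had 91.8, 192 and 130 CPM in the control libraries, against 90.4, 47.1 and 51.9 CPM in MIRI libraries, so that control 1 and MIRI 1 almost met. Arap3, a Rap-dependent GTPase-activating protein, was at -0.24 ± 0.11 (SE) and Rap1gds1 at -0.29 ± 0.15 (SE). The other exchange factors of the family stood near 0 on the log2 scale, with Rapgef1 at -0.03, Rapgef2 at 0.01, Rapgef3 at -0.09 and Rapgef6 at 0.01. Their SE ran from 0.10 to 0.12, and the groups of all 4 overlapped.

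Arrestin and receptor kinase genes gave 10 tested of 31, with a median of -0.13. Beside Arrb1, which was chosen for its difference, 3 of 9 were lower without overlap (5.47% over all genes): Grk5, Ap2a1 and Clta. Grk5, a kinase that marks receptors for arrestin binding, had 292, 230 and 298 CPM in the control libraries, against 185, 218 and 217 CPM in MIRI libraries, a log2 fold change of -0.40 ± 0.15 (SE). Ap2a1, a subunit of the AP-2 adaptor, stood at -0.16 ± 0.12 (SE) and the clathrin light chain Clta at -0.13 ± 0.10 (SE). Arrb2 stood at -0.08 ± 0.31 (SE).

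**Figure D4:**
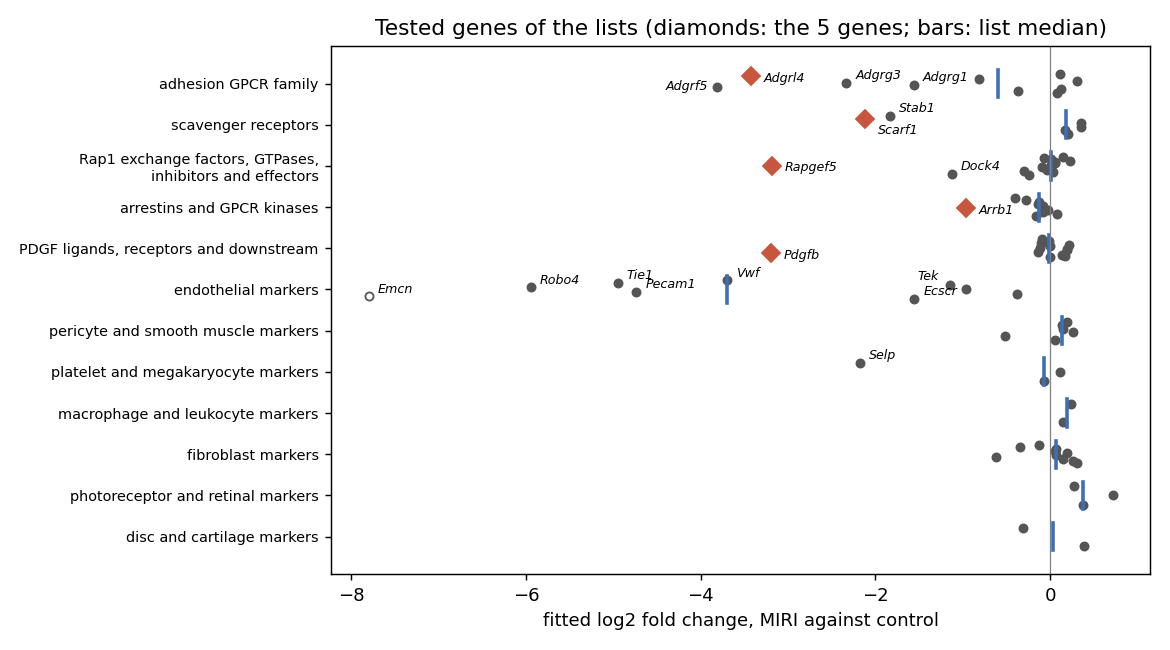
Fitted log2 fold change of MIRI against control (horizontal axis) of each tested gene of the lists (rows), with the 5 genes as diamonds, the list median as a blue bar, and an open circle for Emcn, whose MIRI counts are all 0 so that its fitted value is not a measured fold. The endothelial median lies at -3.70, and the medians of the 5 pathway lists between -0.59 and 0.19; the place of the diamonds was fixed by the choice of the genes.

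Genes most like each of the 5 were sought among 4816 others of at least 2 CPM over the 6 libraries. For Scarf1 these were Selp (root mean square difference 0.219 on the log2 scale), Plxna4 (0.240), Ecscr (0.346), Stab1 (0.360) and Unc13b (0.418). Fam167b was nearest to Rapgef5 (0.204), followed by Exoc3l2 (0.328), Sh3tc1 (0.330), Plxna4 (0.508) and Selp (0.526). For Pdgfb the nearest were Sh3tc1 (0.281), Fam167b (0.289), Plxna4 (0.349) and Exoc3l2 (0.390), which are 4 of the 5 nearest to Rapgef5, and Cftr (0.429). The nearest to Adgrl4 were Robo4 (0.506), Dchs1 (0.583), Gimap1 (0.605), Fam167b (0.662) and Fgd5 (0.686). Those near Arrb1 included Plxna2 (0.150), Fam131a (0.187), Bace2 (0.206) and Hand2os1 (0.232), none of which was among the 5 nearest of another of these genes. Plxna2, a semaphorin receptor, had 286, 321 and 269 CPM in the control libraries, against 154, 153 and 174 CPM in MIRI libraries.

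Promoter sequence was at hand for Adgrl4 and Rapgef5, from RefSeq on GRCm38.p6. The 250 bases before the first Rapgef5 start (chr12:117516276-117516525, plus strand) are shown because they hold a repeat of 26 bases, aggaagtgacatcacagtaatgaata, that begins 88 and 57 bases before the start. Capitals mark GGAAGT, the core bound by ETS factors, within each copy.
Rapgef5 promoter: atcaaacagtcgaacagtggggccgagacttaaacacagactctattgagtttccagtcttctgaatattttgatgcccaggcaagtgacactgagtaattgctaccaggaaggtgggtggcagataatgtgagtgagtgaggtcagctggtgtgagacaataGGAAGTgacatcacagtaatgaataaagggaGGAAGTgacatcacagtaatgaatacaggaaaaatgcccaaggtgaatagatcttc
Of 32851 promoters of that length, 19.74% hold GGAAGT or its reverse ACTTCC and 2.71% hold it at least 2 times. This window also holds 1 AGATAA or TTATCT, the GATA letters, which are in 9.99% of promoters. CACGTG (in 6.02%) and TGACGTCA (in 1.55%) are not in it. The windows before the second Rapgef5 start (chr12:117533678-117533927) and before the Adgrl4 start (chr3:151437632-151437881) hold none of these 4 motifs. A match of letters is a description of the sequence and not a bound site.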

How the data were processed

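RNA of 6 mouse libraries was counted by the authors: the deposited counts are whole numbers of read pairs per gene name, made with featureCounts 2.0.1 on exons and with no strand setting, per the file headers. Library preparation used a TruSeq RNA kit and total RNA, per the labels' protocols. The submitters' processing notes name the builds mm8 and mm9 and the aligner Bowtie 0.12.2; which aligner and build made these alignments is not given in the sources used here. Here the coordinates of the rows were laid over GENCODE M21 exons (GRCm38) with bedtools 2.31.1 as they stand. A row took the name of a gene where no less than 80% of its bases on exons, and no fewer than 50 bp, fell on that gene, and the rows of a gene were added up. In all, 14931 rows (61.4% of counts) were named for 11911 genes. The naming reads the rows as GRCm38, which no header states.

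Total counts per library, 6859481 to 9250952, set the precision. Groups followed the sample labels. All 5918 genes that passed filterByExpr were fitted with edgeR 4.0.16 (TMM, glmQLFit, glmQLFTest, group only, two-sided, Benjamini-Hochberg, threshold 0.05) in R 4.3.3, tested on simulated counts first. The SE of a log2 fold change is its size divided by the square root of F. DESeq2 1.42.0, other filters, naming rules and left-out libraries were alternatives. The named genes are the 5 genes, up to 4 genes per list with the smallest unadjusted p, and 5 genes per member by likeness, of which 1 is not reported here; further list genes were named after their values were seen. The 5 genes and the lists were chosen with earlier results of these data known.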

Additional observations from a re-analysis of the deposited data

How the results depend on the processing

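The 5 fold changes kept their direction in all 68 alternatives, and none moved by more than the spread between replicates. This could hardly come out otherwise, since the contrast chose the genes and their groups did not overlap. With any library left out, every remaining control stays above every remaining MIRI library. Many other alternatives refitted the same counts, so the kept direction is no further support. With 1 library left out at a time, the log2 fold change ran from -3.66 to -2.97 for Adgrl4, -2.35 to -1.87 for Scarf1, -3.54 to -2.78 for Rapgef5, -1.02 to -0.90 for Arrb1 and -3.54 to -2.88 for Pdgfb. Counts of calls moved: from 0 genes in edgeR's test, DESeq2 gave 9 higher and 48 lower, and edgeR without a filter on low counts gave 4 higher and 28 lower. Rows gave 8 higher and 77 lower with DESeq2, and 124 higher and 231 lower without the filter. Leaving out 1 library gave 0 to 14 genes lower (14 without control 1, 2 without control 2, 1 without control 3) and 0 to 31 rows lower (31 without control 1), with 0 to 0 higher in both; the cause was not tested. Deviations of libraries with the same replicate number had r of -0.166, -0.309 and 0.208, and those of other pairs ran from -0.358 to 0.438. Deviations from a group mean sum to 0 within the group, so these values cannot decide whether the libraries are paired. With the replicate number as a block, edgeR called 0 genes and 0 rows in each direction. Rapgef5 and Arrb1 have no value at a naming minimum of 200 bp, since their rows cover less. Pdgfb in MIRI libraries rests on 4 to 6 counts per library, which limits its fold.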

Other observations

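Other deposited rows lie within the spans of the 5 genes and were not added to them. Inside the Adgrl4 span, the row Ifi44l had 3, 6 and 15 counts in controls 1 to 3 and a single count per MIRI library. The row Pitpna had 66.7% of its bases in the Scarf1 span. Its levels were 111, 132 and 120 CPM in the control libraries, against 161, 103 and 111 CPM in MIRI libraries, with overlap. Inside Rapgef5, the row Gm18955 had 3, 6 and 7 counts in controls and 1, 0 and 1 in MIRI libraries. The row A930023M06Rik there had 2, 2 and 6 counts in controls, with 0 in the 3 MIRI libraries. In MIRI libraries the counts of the rows in Adgrl4 and Rapgef5 lie under the limit of 3 counts that a count of 0 allows. In controls they reach 15 at most, and no fold is given.

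Inside the Arrb1 span the rows differed among themselves. The row Rnf169, with 87.3% of its bases in the span, lay on 1380 bp of Gm44914 and took that name by position. It had 27.4, 24.6 and 24.5 CPM in the control libraries, against 12.4, 18.7 and 18.3 CPM in MIRI libraries. Its groups did not overlap, and 5.18% of all tested rows were lower without overlap. The row A930030B08Rik, wholly in the span, had 98, 38 and 83 counts in controls and 51, 62 and 60 in MIRI libraries. Its groups overlapped. The row Xrra1 had 61.2% of its bases in the span. Its levels were 9.35, 5.89 and 9.30 CPM in the control libraries, against 5.52, 9.62 and 8.26 CPM in MIRI libraries, also with overlap.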
